A study of Homo sapiens with 11 samples.

Results

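Myoglobin, the creatine kinases and the muscle form of enolase were followed through single-cell RNA profiles of human heart cells grown as organoids or as a flat culture. The members were 6 genes named by symbol among the 36601 genes of the count tables: *MB*, *CKM*, *CKB*, *CKMT2*, *ENO3* and *EEF1A2*. They were named with earlier results of these data known, so their values are a description and none was tested. All cells were derived from H9, a single human embryonic stem cell line, and were collected on day 42.5. The 3 groups were cardioids (chambered heart organoids) with PD173074, an inhibitor of FGF receptors, cardioids without PD173074, and a 2D culture. The labels give 3 libraries with PD173074, 5 without it and 3 of the 2D culture, made from the 3′ ends of transcripts in droplets, and name no dose, time or duration of the inhibitor and no separate cultures.

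*MB* encodes myoglobin, the oxygen-binding protein of heart and skeletal muscle. Creatine kinases move phosphate between ATP and creatine: *CKM* is the cytosolic muscle form, *CKB* the cytosolic brain form that also occurs in early heart and gut epithelium, and *CKMT2* the form of muscle mitochondria. *ENO3* encodes the muscle form of the glycolytic enzyme enolase, whose general form is *ENO1* and neuronal form *ENO2*, and *EEF1A2* encodes the form of translation elongation factor 1 alpha found in heart, muscle and neurons, where most tissues use *EEF1A1*. As heart and skeletal muscle mature, muscle forms of such enzymes replace the general ones.

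The promoters printed here are those of *MB*, *CKM* and *ENO3*, whose transcripts came mostly from cardiomyocyte-like cells, and of *CKB*, which had its highest level elsewhere. Each runs from 250 bases before to 50 bases after a transcription start, 5′ to 3′ on the strand of the gene, from RefSeq on GRCh38.p14. Capitals mark matches, on either strand, to 4 motifs: TATAAA, the E-box CANNTG, the GC box GGGCGG and the consensus of the muscle factor MEF2. Both printed *MB* starts are given because annotated transcripts begin inside each.
*MB*, chr22:35623305-35623604, minus strand: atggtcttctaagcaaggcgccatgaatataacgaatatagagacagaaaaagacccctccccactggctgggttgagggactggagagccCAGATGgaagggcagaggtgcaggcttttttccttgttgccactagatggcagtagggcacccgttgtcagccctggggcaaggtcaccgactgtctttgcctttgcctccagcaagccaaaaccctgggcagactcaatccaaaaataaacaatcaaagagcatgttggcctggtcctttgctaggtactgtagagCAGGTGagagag
*MB*, chr22:35622480-35622779, minus strand: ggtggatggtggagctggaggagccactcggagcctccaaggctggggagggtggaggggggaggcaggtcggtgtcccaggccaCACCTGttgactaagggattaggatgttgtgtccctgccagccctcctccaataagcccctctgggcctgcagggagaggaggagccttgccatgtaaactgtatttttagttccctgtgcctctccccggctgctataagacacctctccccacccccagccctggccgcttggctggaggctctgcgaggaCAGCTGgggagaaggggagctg
*CKM*, chr19:45322826-45323125, minus strand: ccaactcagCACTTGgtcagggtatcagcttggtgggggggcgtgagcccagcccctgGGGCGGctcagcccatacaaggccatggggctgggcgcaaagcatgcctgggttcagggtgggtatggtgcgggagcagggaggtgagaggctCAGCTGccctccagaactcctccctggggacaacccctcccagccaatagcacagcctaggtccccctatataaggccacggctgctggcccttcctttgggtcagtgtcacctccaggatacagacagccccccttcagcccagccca
*CKB*, chr14:103522781-103523080, minus strand: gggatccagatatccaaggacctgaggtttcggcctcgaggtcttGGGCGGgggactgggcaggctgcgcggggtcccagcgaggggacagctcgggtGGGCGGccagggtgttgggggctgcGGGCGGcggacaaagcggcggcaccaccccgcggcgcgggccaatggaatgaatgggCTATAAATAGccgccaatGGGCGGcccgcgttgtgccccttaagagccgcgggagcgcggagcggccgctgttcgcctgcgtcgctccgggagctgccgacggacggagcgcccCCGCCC
*ENO3*, chr17:4950869-4951168, plus strand: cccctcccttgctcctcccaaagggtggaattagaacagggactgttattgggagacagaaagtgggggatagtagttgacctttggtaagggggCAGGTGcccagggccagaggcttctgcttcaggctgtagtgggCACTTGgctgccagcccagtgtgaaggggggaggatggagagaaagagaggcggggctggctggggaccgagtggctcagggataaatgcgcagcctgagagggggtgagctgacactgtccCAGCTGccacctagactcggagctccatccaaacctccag

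The printed *MB*, *CKM* and *ENO3* promoters held 2 or 3 E-boxes each and no match to TATAAA or to the MEF2 consensus. The *CKB* promoter held no E-box, 5 GC boxes, and a TATAAA that overlaps a MEF2 match about 70 bases before the start. Of 35116 promoters of the same length in the table, 68.7% held an E-box, 45% a GC box, 11.5% TATAAA and 2.99% the MEF2 consensus. A promoter was matched for 5 of the 6 members, at 8 starts, and not for *EEF1A2*. The matches describe the letters of these windows and not bound sites. The *CKB* window was 72.3% G and C, against 52% to 64.3% in the other printed windows.

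On GENCODE 29 (GRCh38) the genes lie at chr22:35606764-35637951 for *MB* (ENSG00000198125), chr19:45306414-45322977 for *CKM* (ENSG00000104879), chr14:103519659-103523111 for *CKB* (ENSG00000166165), chr5:81233285-81266397 for *CKMT2* (ENSG00000131730), chr17:4948092-4957131 for *ENO3* (ENSG00000108515) and chr20:63488012-63499322 for *EEF1A2* (ENSG00000101210). *ENO3* shares exon bases with *PFN1* on the opposite strand. The sources used here do not say whether strand or intronic reads were counted, so reads of that stretch cannot be told apart. *CKMT1A* and *CKMT1B*, a pair of near-identical copies of a mitochondrial creatine kinase gene, are uncertain for the same kind of reason.

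Within a group, 99.3% to 99.9% of cell barcodes recurred from library to library with UMI totals per barcode that correlated at 0.998 or more on the log10 scale, and between groups at most 0.737% did. Such libraries were taken as repeat runs of the same droplets, so each group is 1 sample and no difference has a replicate check. Runs held 36127841 to 37765195 UMIs with PD173074, 12266166 to 24495291 without it and 43908067 to 46304366 in 2D culture, and 4597 cells with PD173074, 3534 without it and 8183 in 2D culture were kept. Levels are in CPM, a gene's UMIs scaled to the total UMIs of the cells considered, as the mean over runs. Run 3 without PD173074 was the shallowest and stood apart from the other 4, with *MB*, *CKM*, *CKMT2* and *ENO3* higher and *CKB* lower. Without it the mean in cardiomyocyte-like cells without PD173074 was 817.8 CPM for *MB*, 125.9 CPM for *CKM*, 152.7 CPM for *CKB*, 26.2 CPM for *CKMT2*, 157.1 CPM for *ENO3* and 165.2 CPM for *EEF1A2*, and the calls of members in these cells were the same without it. Log2 ratios come from counts summed over runs, so they can differ slightly from the ratio of the mean levels. Their 95% intervals cover counting error in 1 set of droplets only and not variation between cultures. UMIs at 3′ ends were not divided by transcript length, so each level is compared between cells and not between genes.

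Cells were clustered without the members and the genes of the pathway lists. Cardiomyocyte-like cells, 9 clusters with a high summed level of 16 heart muscle markers, were 2882 of 4597 cells (62.7%) with PD173074, 2826 of 3534 (80.0%) without it and 5372 of 8183 (65.6%) in 2D culture. The largest cluster of that class was a different one in each sample. Cluster 2, led by the atrial genes *NPPA* and *NR2F1*, held 50.3% of it with PD173074, against 8.49% without PD173074 and 0.130% in 2D culture. Cluster 3, led by the atrioventricular canal genes *TBX3* and *RSPO3*, held 0.486% with PD173074, 48.7% without it and 1.40% in 2D culture. Cluster 0, with *JCAD* and *GRIA4* among its leading genes, held 0.0694% with PD173074, 11.4% without it and 56.8% in 2D culture. A cluster made mostly of 1 sample may be that sample and not a cell type. Clusters 1 and 11 were set aside because their 10 leading genes held 1 marker of another class and no heart muscle marker. That gene was *KDR* (endothelial) in cluster 1 and *MYLK* (smooth muscle) in cluster 11. Their heart muscle markers summed to 18095 CPM in cluster 1 and 28113 CPM in cluster 11, above the 17742 CPM of cluster 0, which was kept. The set-aside cells may thus be heart muscle cells too.

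A gene was called higher or lower between samples where its level in the higher sample was 20 CPM or more and its whole interval lay beyond 2-fold. In cardiomyocyte-like cells, *MB* and *ENO3* were lower with PD173074 than without it, 2 of the 6 members, where 2.11% of 8046 genes were called lower and 2.54% higher. *MB*, *ENO3* and *CKMT2* were lower with PD173074 than in 2D culture, where 2.82% of 8085 genes were called lower and 5.45% higher. No member was called without PD173074 against 2D culture, where 0.254% of 7871 genes were called lower and 1.22% higher. Nothing is read from these counts, since the members were chosen on the same contrasts. The comparisons with PD173074 share its sample, and those with 2D culture share that one. All 6 members reached 20 CPM without PD173074 and in 2D culture, and 5 did with PD173074, where *CKMT2* was below.

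**Figure D1:**
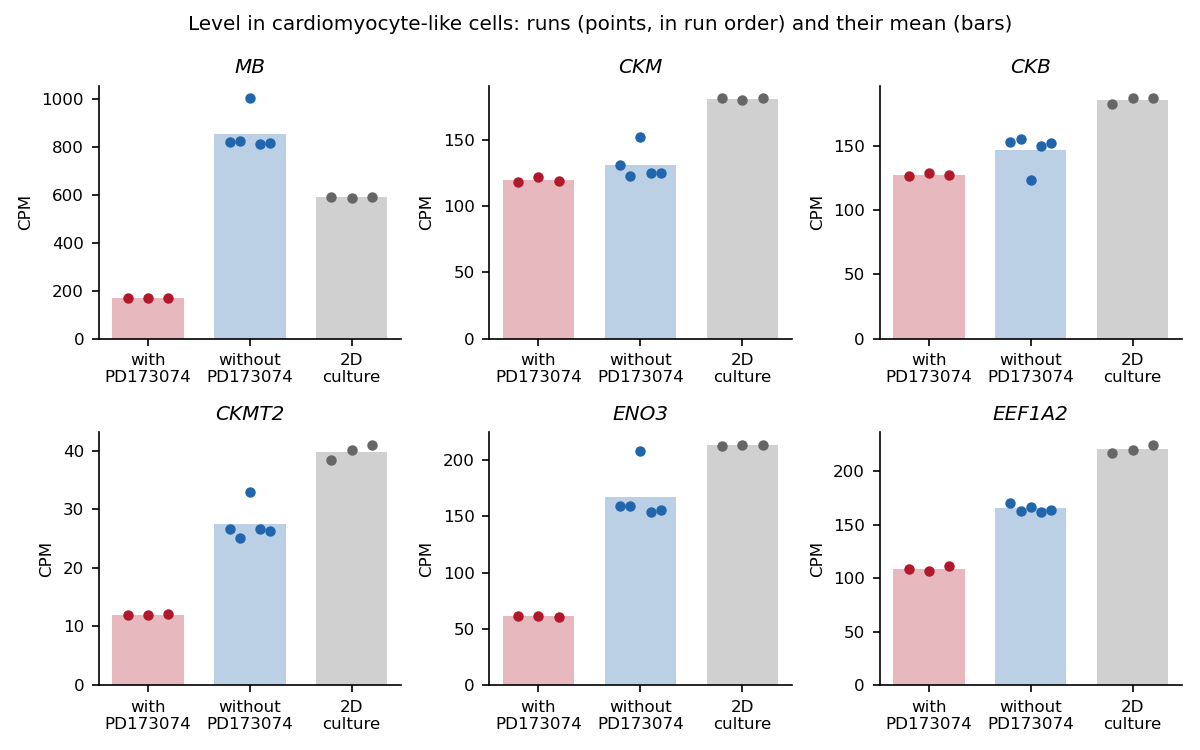
Level of each member in cardiomyocyte-like cells in CPM (vertical axis) by sample (horizontal axis), with each run of the same droplets as a point and their mean as a bar. For *MB* the 3 runs with PD173074 lie near 170.5 CPM, below the 5 runs without PD173074 (810.7 to 1003) and the 3 of 2D culture, and the point that stands apart without PD173074 is run 3.

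Myoglobin showed the widest difference between the cardioids. *MB* stood at 170.5, 169.9 and 169.3 CPM in the runs with PD173074, at 820.0, 824.6, 1003, 810.7 and 815.7 CPM in those without it, and at 592.1, 586.8 and 591.3 CPM in 2D culture. The samples did not overlap: the cardioids with PD173074 were lowest and those without it highest. In cardiomyocyte-like cells *MB* was 4.94-fold lower with PD173074 than without it (log2 ratio -2.30, interval -2.36 to -2.25) and 3.47-fold lower than in 2D culture (-1.80). The cardioids without PD173074 lay above 2D culture by 0.51 on the log2 scale (0.47 to 0.54), which is short of the call, at a mean of 854.8 CPM without PD173074 and 590.1 CPM in 2D culture.

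The cells of cluster 3 carried much of the *MB* of cardioids without PD173074. There *MB* reached 1119 CPM without PD173074, its highest level in any cluster and sample of at least 50 cells, against 438 CPM in the 75 cells of 2D culture in that cluster. With cluster 3 left out, the log2 ratio without PD173074 against 2D culture was -0.11, the opposite sign to the value with it. The ratio with PD173074 against without was then -1.70 and was still called. Cluster by cluster, 6 cardiomyocyte-like clusters held at least 50 cells both without PD173074 and in 2D culture. *MB* was higher without PD173074 in all 6, beyond its counting interval, with log2 ratios from 0.09 to 1.35. The part of cluster make-up in the turn of sign was not tested.

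Of the cardiomyocyte-like clusters, 4 held at least 50 cells of both cardioids, and *MB* was lower with PD173074, beyond its counting interval, in each, by amounts that differed widely. The log2 ratio was -0.76 in the atrial-led cluster 2 (173 CPM with PD173074, against 293 CPM without it). It was -0.25 in cluster 6, which *TFPI2* and *GFRA1* led (229 CPM with PD173074, against 273 CPM without it), and -0.44 in cluster 8, led by *FGF12* (114 CPM with PD173074, against 155 CPM without it). In cluster 13, the mitotic cells with *TOP2A* and *MKI67*, *MB* stood at 152 CPM with PD173074, 791 CPM without it and 435 CPM in 2D culture, a log2 ratio of -2.38 between the cardioids. The mitotic cells thus differed by about as much as the whole class, and the other 3 clusters by less.

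The cytosolic muscle creatine kinase differed least between the cardioids. *CKM* stood at 118.3, 122.1 and 118.8 CPM in the runs with PD173074, at 131.0, 122.8, 152.4, 124.9 and 124.9 CPM without it, and at 181.6, 180.1 and 181.6 CPM in 2D culture. Both cardioids lay below the 2D culture, and the cardioids lay close to each other. The log2 ratio was -0.11 with PD173074 against without (-0.19 to -0.02), -0.60 with PD173074 against 2D culture and -0.49 without PD173074 against 2D culture, none of them called. The interval of *CKM* held 0 in all 4 cardiomyocyte-like clusters shared by the cardioids, with ratios from -0.27 to 0.21. Against 2D culture, no shared cardiomyocyte-like cluster had its interval below 0. Without PD173074 the ratios to 2D culture ran from -0.20 to 0.69 in 6 clusters, with the interval above 0 in 1. With PD173074 they were 0.12 and 0.42 in 2 clusters, and both intervals held 0.

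*CKM* varied widely between clusters of 1 sample. With PD173074 it reached 189 CPM in cluster 2, against 42.9 CPM in cluster 6, a 4.41-fold span. Without PD173074 its highest level was 323 CPM in cluster 4, whose leading genes include *MYL3* and *CSRP3*, and its lowest 51.7 CPM in cluster 6, a 6.24-fold span that *MB* and *ENO3* exceeded there. In 2D culture cluster 4 had 287 CPM and cluster 6 had 32.0 CPM, an 8.96-fold span. Cluster 6 was thus the lowest cardiomyocyte-like cluster for *CKM* in all 3 samples. *CKM* itself is among the leading genes of cluster 4, which was found without it, and that cluster had the lowest median depth of the 16, at 3132 UMIs per cell; the part of depth in the result was not tested.

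The brain-type creatine kinase had the order of *CKM* in cardiomyocyte-like cells, but not over all cells. In cardiomyocyte-like cells *CKB* stood at 126.8, 128.7 and 127.7 CPM with PD173074, at 153.2, 155.5, 123.6, 150.1 and 152.1 CPM without it, and at 182.5, 187.1 and 187.3 CPM in 2D culture. Its runs without PD173074 lay above those with PD173074, except run 3. The log2 ratio was -0.23 with PD173074 against without (-0.31 to -0.14), -0.54 with PD173074 against 2D culture and -0.31 without PD173074 against 2D culture. In the 4 cardiomyocyte-like clusters shared by the cardioids the ratio ran from -0.83 to -0.23, with the interval below 0 in 3. When heart muscle cells were instead taken as those with UMIs of *TNNT2* and of *ACTN2* or *TTN*, with no clusters, the sign turned for both comparisons of PD173074, to 0.61 against cardioids without it and 0.46 against 2D culture.

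Over all cells *CKB* was higher with PD173074, at 461.0 CPM, against 216.1 CPM without it and 167.2 CPM in 2D culture. The log2 ratios were 1.07 (1.02 to 1.12) with PD173074 against without and 1.46 with PD173074 against 2D culture, both called, though the ratio between the cardioids was 1.04 (0.99 to 1.08) without run 3, short of the call. Without PD173074 against 2D culture it was 0.40. In the same cells *MB* and *ENO3* were lower with PD173074 than without it, so 3 of 6 members were called, where 1.97% of 8124 genes were called lower and 3% higher. Against 2D culture 4 were called, *MB*, *CKMT2* and *ENO3* lower and *CKB* higher, where 2.66% of 8087 genes were called lower and 5.3% higher. None was called without PD173074 against 2D culture, where 0.366% of 7916 genes were called lower and 1.01% higher.

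**Figure D2:**
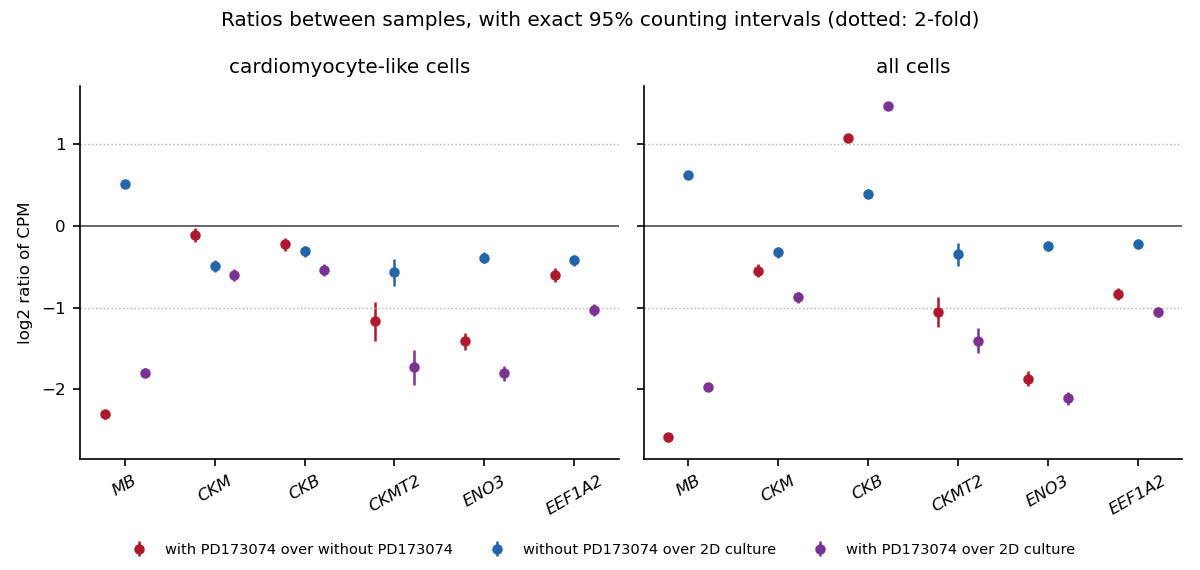
Log2 ratio of CPM (vertical axis) for each member (horizontal axis) in cardiomyocyte-like cells and in all cells, with exact 95% counting intervals as bars and 2-fold as dotted lines. *MB* and *ENO3* lie below the lower line in both panels for PD173074 against either other sample, and *CKB* lies below 0 in cardiomyocyte-like cells and above the upper line in all cells.

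Most *CKB* transcripts of the cardioids with PD173074 came from a small endoderm-like cluster. Cluster 14, named from liver and gut markers such as *AFP*, *TTR* and *APOA1*, held 55 cells with PD173074 (1.2% of cells), 74 without it (2.09%) and 3 in 2D culture. It supplied 78.0% of all *CKB* UMIs with PD173074 and 36.5% without it, while cardiomyocyte-like cells supplied 14.6% with PD173074, 50.5% without it and 62.2% in 2D culture. With cluster 14 left out, the all-cell log2 ratio of *CKB* was -0.47 with PD173074 against without and -0.66 with PD173074 against 2D culture, so the higher level rested on these cells.

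Within the endoderm-like cluster *CKB* stood at 14062 CPM with PD173074, against 2440 CPM without it (log2 ratio 2.53, 2.45 to 2.60). Cell by cell, 53 of 55 cells with PD173074 had a *CKB* UMI, with a median of 9889 CPM and a highest value of 41017 CPM. Without PD173074, 45 of 74 cells had one (60.8%), with a median of 79.2 CPM and a highest value of 28079 CPM. The lowest cell was at 0 in both, so the ranges overlapped, but 27 cells with PD173074 (49.1%) and 7 without it (9.46%) were at 10000 CPM or more. The cells with PD173074 were deeper, at a median of 15096 UMIs, against 6534 without it, and cells of 1 sample are not replicates.

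The endoderm markers of those cells did not all lie on 1 side. *FABP1*, a fatty acid binding protein of liver and gut, stood at 1217 CPM with PD173074, against 80.3 CPM without it, and *TTR*, a thyroid hormone carrier, at 1294 CPM with PD173074 and at 784 CPM without it. *AFP*, the fetal liver plasma protein, stood at 483 CPM with PD173074 and at 970 CPM without it, and *APOA2*, a lipoprotein component, at 87.6 CPM with PD173074 and at 289 CPM without it. *ALB*, albumin, stood at 208 CPM with PD173074 and at 204 CPM without it. Epithelial-like cells of cluster 10 had little *CKB*, at 25.2 CPM with PD173074 and at 17.5 CPM without it. The part of a different make-up of the endoderm-like cells in their *CKB* level was not tested.

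**Figure D3:**
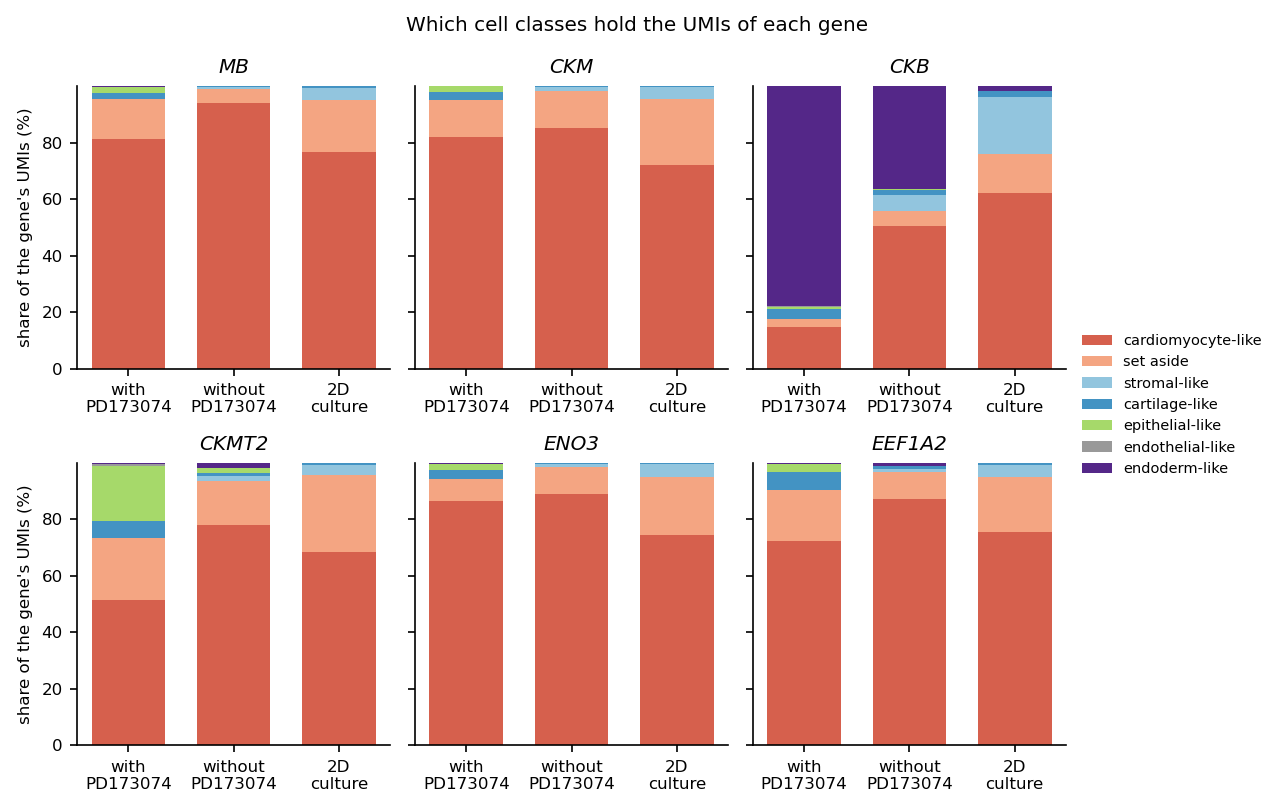
Share of each member's UMIs in percent (vertical axis) that came from each cell class (colours) in the 3 samples (horizontal axis). Cardiomyocyte-like cells supply the largest share in every panel but *CKB* of the cardioids with PD173074; endoderm-like cells supply 78.0% of *CKB* with PD173074 and 36.5% without it.

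The mitochondrial creatine kinase was the scarcest member. *CKMT2* stood at 11.99, 11.94 and 12.11 CPM in the runs with PD173074, at 26.6, 25.05, 33.0, 26.7 and 26.3 CPM without it, and at 38.4, 40.1 and 41.1 CPM in 2D culture. The 3 samples did not overlap, and run 3 was again the highest without PD173074. With PD173074 it was 3.32-fold lower than in 2D culture (log2 ratio -1.73). Against cardioids without PD173074 the log2 ratio was -1.17 with an interval of -1.40 to -0.93, which reached inside 2-fold, and with no filter on cells it was -1.31 (-1.57 to -1.06), past the call. In the 4 cardiomyocyte-like clusters shared by the cardioids the interval held 0 each time, with ratios from -0.70 to -0.08. Its levels were highest in cluster 4, at 50.7 CPM without PD173074 and 49.6 CPM in 2D culture, and lowest in the mitotic cluster 13 of both cardioids, at 7.15 CPM with PD173074 and at 9.11 CPM without it.

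The sources of *CKMT2* transcripts differed between samples. Cardiomyocyte-like cells supplied 51.2% of its UMIs with PD173074, 77.8% without it and 68.2% in 2D culture. Of the UMIs of all genes they held 52.7% with PD173074, 74.3% without it and 56.0% in 2D culture. In both cardioids their share of *CKMT2* was thus near their share of all UMIs. With PD173074 the set-aside clusters supplied 22.2% of *CKMT2* and held 10.9% of all UMIs, and epithelial-like cells supplied 19.5% and held 17.7%. Cluster 11, which held most set-aside cells of that sample, had a summed heart muscle marker level of 28113 CPM. The paired copies *CKMT1A* and *CKMT1B*, the mitochondrial forms of other tissues, had low levels: *CKMT1A* stood at 1.48 CPM with PD173074, 2.00 CPM without it and 2.64 CPM in 2D culture, and *CKMT1B* at 1.42 CPM with PD173074, 1.89 CPM without it and 2.08 CPM in 2D culture.

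Muscle enolase followed the order of *CKMT2*. *ENO3* stood at 61.5, 61.2 and 60.7 CPM with PD173074, at 159.3, 159.5, 208.2, 154.0 and 155.4 CPM without it, and at 212.4, 214.0 and 213.6 CPM in 2D culture. No run of 1 sample overlapped another, though run 3 came close to the 2D culture. *ENO3* was 2.66-fold lower with PD173074 than without it (log2 ratio -1.41, -1.51 to -1.31) and 3.49-fold lower than in 2D culture (-1.80), and without PD173074 against 2D culture the log2 ratio was -0.39. Within shared clusters of the cardioids the ratio was -0.43 in cluster 2, -0.32 in cluster 6, 0.18 in cluster 8 and -1.61 in the mitotic cluster 13, where *ENO3* stood at 36.6 CPM with PD173074, 112 CPM without it and 193 CPM in 2D culture. The interval lay below 0 in 3 of the 4 and held 0 in cluster 8.

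The general enolase moved by nearly the same amount, so the share of the muscle form hardly differed between the cardioids. *ENO1* stood at 962.2 CPM with PD173074, 2588 CPM without it and 2471 CPM in 2D culture, and was lower with PD173074 than without it (log2 ratio -1.43). *ENO2* stood at 27.1 CPM with PD173074, 69.7 CPM without it and 80.9 CPM in 2D culture and was also lower with PD173074 than without it (-1.33). *ENO3* made up 5.82% of the UMIs of the 3 enolase genes in cardiomyocyte-like cells with PD173074, 5.75% without it and 7.71% in 2D culture.

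Cluster 12 of the 2D culture, 462 cells led by the ventricular genes *MYL2* and *MYH7*, broke that relation. There *ENO3* was high at 289 CPM while *ENO1* was at 930 CPM, its lowest level in any cardiomyocyte-like cluster of the 2D culture, and *ENO3* made up 23.0% of enolase UMIs. Cluster 4 of the 2D culture had nearly the same *ENO3*, at 286 CPM, but *ENO1* at 3258 CPM and an *ENO3* share of 7.87%. In cluster 8, led by *FGF12*, *ENO1* was lowest of all at 283 CPM with PD173074 and at 465 CPM without it, and the *ENO3* share was 13.1% with PD173074 and 7.55% without it.

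**Figure D4:**
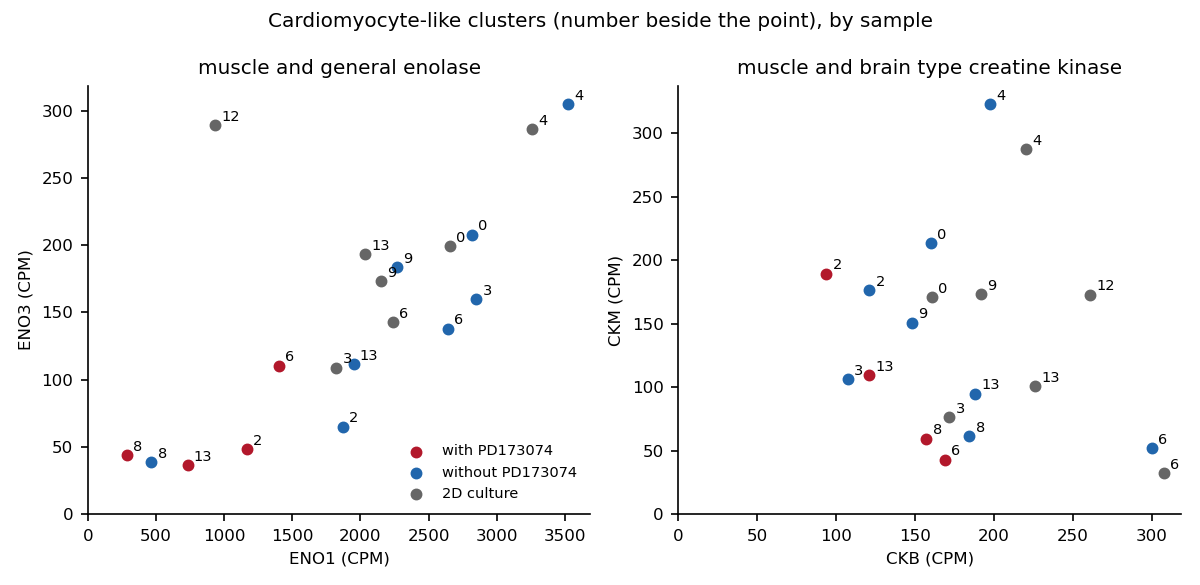
Cardiomyocyte-like clusters of each sample, plotted by *ENO3* against *ENO1* and by *CKM* against *CKB*, all in CPM. *ENO3* and *ENO1* are high together in cluster 4 and low together in cluster 8, while cluster 12 of the 2D culture has *ENO3* at 289 CPM with *ENO1* at 930 CPM; cluster 6 lies at low *CKM* in all 3 samples.

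The creatine kinases showed a comparable contrast of forms between clusters. *CKM* made up 48.4% of *CKM* and *CKB* UMIs in cardiomyocyte-like cells with PD173074, 46.3% without it and 49.4% in 2D culture, so the class as a whole hardly differed between samples. Between clusters the share ran from 20.3% in cluster 6 to 66.9% in cluster 2 with PD173074, and was 14.7% in cluster 6 and 62.0% in cluster 4 without it. In 2D culture it was 9.43% in cluster 6 and 56.6% in cluster 4. *CKB* was highest among cardiomyocyte-like clusters in cluster 6 of each sample, at 169 CPM with PD173074, 300 CPM without it and 307 CPM in 2D culture.

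The elongation factor form of muscle and neurons differed by less than *ENO3*. *EEF1A2* stood at 108.7, 106.3 and 111.1 CPM with PD173074, at 170.9, 163.2, 166.6, 162.4 and 164.1 CPM without it, and at 217.7, 220.0 and 225.2 CPM in 2D culture. The 3 samples did not overlap, and run 3 lay among the other runs. The log2 ratio was -0.60 with PD173074 against without (-0.69 to -0.52), -1.02 with PD173074 against 2D culture (-1.10 to -0.95) and -0.42 without PD173074 against 2D culture, none of them called. When the members and pathway genes were used in clustering, the ratio to 2D culture was -1.12 (-1.20 to -1.04), past the call. *EEF1A1*, the general form, stood at 7472 CPM with PD173074, 6404 CPM without it and 6271 CPM in 2D culture. *EEF1A2* made up 1.43% of the UMIs of the pair with PD173074, 2.49% without it and 3.40% in 2D culture.

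*EEF1A2* was highest in cluster 4, at 316 CPM without PD173074 and 300 CPM in 2D culture. Next came cluster 12 of the 2D culture at 235 CPM and cluster 0 at 225 CPM without PD173074 and 222 CPM in 2D culture. In the 4 cardiomyocyte-like clusters shared by the cardioids the log2 ratio was -0.11, 0.19, 0.07 and -0.57 in clusters 2, 6, 8 and 13, and the interval lay below 0 only in the mitotic cluster 13. Cluster 11, set aside and with the sinus node gene *SHOX2* and *MYLK* among its leading genes, had 130 CPM with PD173074 and 114 CPM without it.

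**Figure D5:**
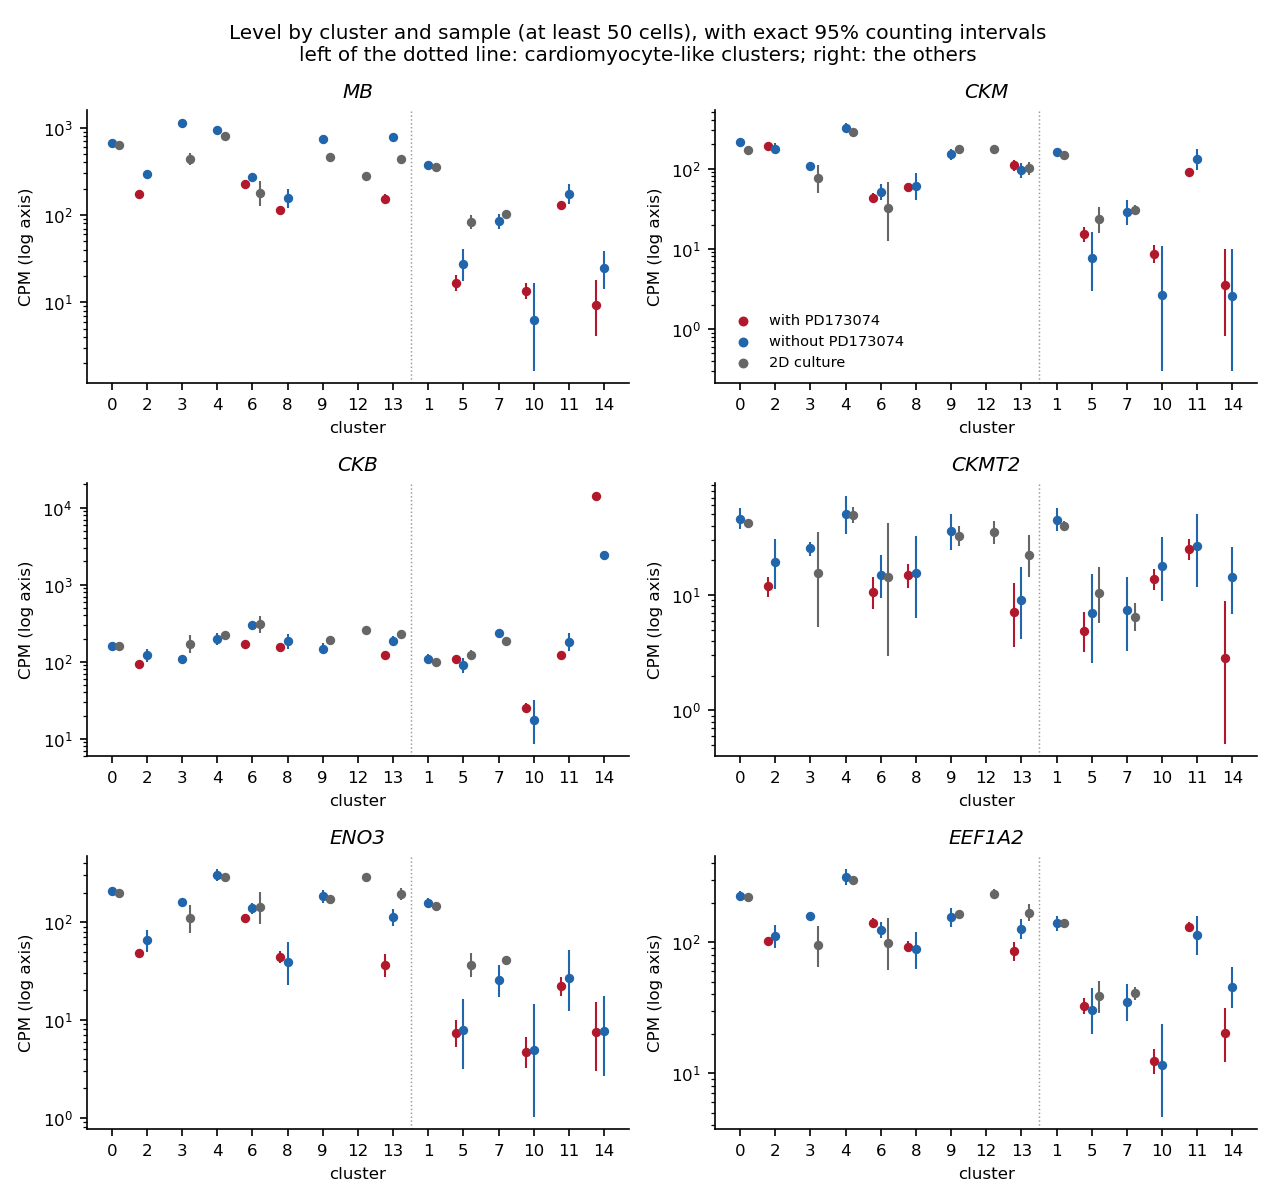
Level in CPM (vertical log axis) of each member by cluster (horizontal axis) and sample (colours), for groups of at least 50 cells, with exact 95% counting intervals. *MB* is highest in cluster 3 without PD173074 (1119 CPM), *CKM* and *EEF1A2* in cluster 4, and *CKB* in the endoderm-like cluster 14 (14062 CPM with PD173074, 2440 CPM without it).

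Subtypes were also read cell by cell from marker genes, within a sample, against cardiomyocyte-like cells with no UMI of any gate gene. With PD173074, 997 cells with a UMI of the atrial genes *NPPA* or *NR2F1* had *CKM* at 168.7 CPM, against 51.2 CPM in 539 cells with none (log2 ratio 1.72). Cells with *RSPO3* or *TBX3*, the canal genes, had *CKM* at 146.7 CPM (1.52), and the 94 cells with *SHOX2* had it at 154 CPM (1.59). *MB* in those atrial cells was 137.1 CPM, against 177.4 CPM in cells with none (-0.37), so *CKM* and *MB* did not go together there. Gate cells were deeper, with a median of 6841 UMIs in the atrial gate against 4223 in cells with none, and the part of depth was not tested.

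Without PD173074 the canal gate took in most cells (80.8%), as it did in 2D culture (74.5%). The 2282 cells with *RSPO3* or *TBX3* without PD173074 had *MB* at 930 CPM, against 200 CPM in 130 cells with none (log2 ratio 2.22), and *CKB* at 141 CPM, against 256 CPM (-0.85). For the same gate the *MB* ratio was 0.13 with PD173074 (-0.02 to 0.28) and 0.26 in 2D culture. Without PD173074 the cells with none were shallower, at a median of 2873 UMIs against 5214 in the canal gate, and the part of depth was not tested. In that sample *MB* was also above the cells with none in 145 cells with *MKI67* or *TOP2A*, genes of dividing cells, at 728 CPM (1.87). The same held in 147 cells of the atrial gate, at 473 CPM (1.25). In 2D culture the 297 cells with the ventricular gene *MYL2* had *ENO3* at 321 CPM, against 239 CPM in 380 cells with none (0.42), while their *MB* ratio was -0.48. In the atrial gate *CKB* lay below cells with none in both cardioids (94.5 against 186.3 CPM with PD173074, 106 against 256 CPM without it) but above them in the 88 gate cells of 2D culture, at 492 against 208 CPM (1.24). The *MYL2* gate held 17 cells with PD173074 and 31 without it, too few to describe, as were *SHOX2* cells outside the cardioids with PD173074.

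In single cells thinned to 2000 UMIs each, the share of cardiomyocyte-like cells with a UMI gave the same order of samples as the level for all 6 members. An *MB* UMI was found in 24.3% of cells with PD173074, in 60.2% without it and in 58.7% in 2D culture. *ENO3* was found in 11.1% of cells with PD173074, in 25.8% without it and in 32.5% in 2D culture. *EEF1A2* was found in 18.2% of cells with PD173074, in 29.2% without it and in 36.1% in 2D culture. These are shares of cells and not levels, and both genes were found in fewer cells of the cardioids than of the 2D culture. *CKM* was found in 17.3% of cells with PD173074, in 19.8% without it and in 28.7% in 2D culture, and *CKMT2* in 2.35% with PD173074, 5.63% without it and 7.46% in 2D culture. Thinning left out 248 shallower cells with PD173074, 128 without it and 343 in 2D culture, and the cells used had medians of 6331 UMIs with PD173074, 5419 without it and 4202 in 2D culture. Before thinning, *MB* was found in 48.9% of cells with PD173074 at a median of 5900.0 UMIs, in 77.4% without it at 5287 UMIs and in 77.0% in 2D culture at 4085 UMIs. *ENO3* was then found in 26.4% with PD173074, 50.1% without it and 55.8% in 2D culture.

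Stromal-, cartilage- and epithelial-like cells served as background for free RNA, though a UMI there may be the cells' own transcript, which was not tested. With PD173074 they were 598 cartilage-like, 533 epithelial-like and 1 stromal-like cells, and in 2D culture 704 stromal-like and 239 cartilage-like cells. Together the background cells had an *MB* UMI in 2.32% of cells with PD173074, in 3.95% without it and in 10.6% in 2D culture. *ENO3* was found in 0.535% of them with PD173074, 0.329% without it and 4.75% in 2D culture. For *CKMT2* the background share of 1.34% with PD173074 came close to the 2.35% of cardiomyocyte-like cells of that sample, while it was 1.64% without PD173074 and 0.864% in 2D culture. *CKB* had a UMI in 17.7% of cardiomyocyte-like cells with PD173074, 21.8% without it and 27.9% in 2D culture, and in 11.1% of the background cells with PD173074, 15.8% without it and 26.9% in 2D culture. Those cells had median depths of 9196 UMIs with PD173074, 6552 without it and 9731 in 2D culture before thinning. The *CKB* share of heart muscle cells in 2D culture was thus near the background share.

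Within a sample, some pairs among *MB*, *CKM*, *ENO3* and *EEF1A2* were high in the same cells and others were not. Over 30 ordered pairs, the level of a member was higher, beyond its counting interval, in cells with a UMI of another member in 11 pairs with PD173074, 13 without it and 14 in 2D culture. It was lower in 0 pairs with PD173074, 4 without it and 3 in 2D culture, and *CKB* was in each of those pairs. The higher pairs also held *CKB* with *ENO3* in each sample. For *CKM* in cells with an *ENO3* UMI the interval held 0 in both cardioids (0.19 with PD173074, 0.17 without it). For *ENO3* in cells with an *EEF1A2* UMI it held 0 in 2D culture (0.09, -0.04 to 0.21). No share over other gene pairs is given, so nothing is read from these counts. The part of differences between clusters was not tested. With PD173074, where 62 cells had a *CKMT2* UMI, no pair with *CKMT2* was higher beyond its interval. *MB* was higher by 0.99 on the log2 scale in cells with an *EEF1A2* UMI with PD173074, by 0.47 without it and by 0.25 in 2D culture. *CKB* was lower in cells with an *MB* UMI without PD173074 (-0.45) and in 2D culture (-0.18), and was higher in cells with an *ENO3* UMI with PD173074 (0.65).

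Across clusters, the pairs with *CKB* stood apart from the others only where non-muscle cells were included. Over 32 groups of a sample and cluster, Pearson correlations of log2(CPM + 1) were 0.66 to 0.94 for the 10 pairs without *CKB* and -0.27 to 0.04 for the 5 pairs with it. Over the 19 groups that were cardiomyocyte-like they were 0.42 to 0.88 without *CKB* and -0.30 to 0.49 with it, so the ranges overlapped. The groups share samples and libraries, and the wider set contrasts heart muscle with other cells.

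Among 10924 genes, those whose pattern over the 32 groups was among the most like a member included *IDH3A* and *NKX2-5* for *MB* (0.948 for the first), *PPP1R14C*, *XIRP1* and *ADPRHL1* for *CKM* (0.941), *DLD*, *MRPS6* and *MTFR1L* for *CKMT2* (0.886), *SGCA*, *SOD2* and *IDH3A* for *ENO3* (0.958) and *TESC*, *IDH3A* and *RND2* for *EEF1A2* (0.942). *IDH3A* encodes a subunit of a citric acid cycle enzyme of mitochondria, *DLD* a subunit of several mitochondrial dehydrogenase complexes, and *XIRP1* and *SGCA* muscle structure proteins. For *CKB* they were *SLC26A2*, a sulfate transporter (0.893), *FABP2*, a fatty acid binding protein of the gut, and *HEPACAM2*. Over the 19 cardiomyocyte-like groups the leading genes were others, *ISOC1* for *MB* (0.947), *RPS6KB2* for *CKM* (0.828), *PROCR* for *CKB* (0.826), *FHL2* for *CKMT2* (0.934), *CSRP1* for *ENO3* (0.954) and *TMEM219* for *EEF1A2* (0.944).

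The genes around the members were read from lists, at 10 CPM or more in the higher sample and with a whole interval beyond 1.5-fold. With PD173074 against without, 5.2% of all 10581 genes were higher by this rule and 4.9% lower, with a median log2 ratio of -0.07. Of 16 genes of creatine and phosphate transfer, 1 was higher and 3 lower, with a median of -0.28. *GATM*, which makes the precursor of creatine, was higher with PD173074, at 38.0 CPM against 17.8 CPM without it. *VDAC1*, a channel of the outer mitochondrial membrane, was lower at 119 CPM with PD173074 against 205 CPM without it, *AK4*, a mitochondrial adenylate kinase, was lower at 55.0 CPM with PD173074 against 98.2 CPM without it, and *CKMT2* was the third.

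Among 8 muscle forms of glycolysis and glycogen enzymes, 0 were higher and 2 lower (median -0.16): *ENO3*, and the muscle glycogen phosphorylase *PYGM* at 5.4 CPM with PD173074 against 13.0 CPM without it. Among 10 other forms of the same enzymes, 1 was higher and 4 lower (median -0.42). *LDHA*, the lactate dehydrogenase form common in anaerobic tissue, was lower at 743 CPM with PD173074 against 1936 CPM without it, as were *ENO1* and *ENO2*, and *ALDOC*, the brain form of aldolase, was higher at 89.8 CPM with PD173074 against 48.8 CPM without it. Both the muscle and the other forms thus held lower genes.

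*FHL2*, a protein of the M-band and Z-disc that binds metabolic enzymes, stood at 507 CPM with PD173074 against 1086 CPM without it, and was the only one of 8 M-band genes lower by this rule, with 0 higher. *MYOM1*, which encodes myomesin and anchors muscle creatine kinase at the M-band, stood at 968 CPM with PD173074 and at 699 CPM without it (log2 ratio 0.47). Of 16 regulators of muscle metabolic genes, 1 was higher and 1 lower (median -0.09): *MYOCD*, the coactivator myocardin, was higher at 357 CPM with PD173074 against 219 CPM without it, and the calcium-dependent factor *NFATC2* was lower at 28.4 CPM with PD173074 against 55.8 CPM without it. *SRF*, the partner of myocardin, stood at 37.0 CPM with PD173074 and at 21.98 CPM without it. *ESRRG*, a nuclear receptor of mitochondrial genes, was the other regulator with a wide ratio, at 304.2 CPM with PD173074 and at 423.3 CPM without it. None of 7 elongation factor genes had its whole interval beyond 1.5-fold (median 0.16), though *EEF1A2* itself was 1.52-fold lower with PD173074.

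Without PD173074 against 2D culture, 3.19% of 10442 genes were higher by the 1.5-fold rule and 1.15% lower, with a median of 0.09. Only the general forms of respiratory subunits held such genes among the lists, with 2 of 4 lower: *COX7A2* at 237 CPM without PD173074 against 409 CPM in 2D culture, and *COX6B1* at 267 CPM without PD173074 against 425 CPM in 2D culture, both subunits of cytochrome c oxidase. Creatine and phosphate transfer had 0 of 16 in either direction (median -0.13), as had the muscle forms of glycolysis and glycogen enzymes (0 of 8, median -0.16). With PD173074 against 2D culture, where 9.47% of 10657 genes were higher and 7.34% lower (median 0.02), 1 of 16 genes of creatine and phosphate transfer was higher and 5 lower (median -0.46), and 2 of 8 muscle forms were lower (median -0.27).

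The cells holding the members bore the marks of heart and not of skeletal muscle. The 16 heart muscle markers summed to 30925 CPM in cardiomyocyte-like cells with PD173074, 23916 CPM without it and 20408 CPM in 2D culture. The 16 skeletal muscle markers summed to 9.72 CPM with PD173074, 25.7 CPM without it and 14.4 CPM in 2D culture, with 3 to 5 of them at 1 CPM or more in a sample, and *MYF5*, *MYH1*, *MYH2* and *MYH8* were at 0 in all 3 samples. No other globin of a list of 10 reached 10 CPM in any of the 3 comparisons.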

How the data were processed

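Transcripts of H9-derived cells were counted in 11 droplet libraries. UMI counts by gene and barcode, neither normalized nor scaled, are what the authors deposited per library. The submitters' processing notes name Cell Ranger 7.0.0 and hg38. The chemistry was version 2 or 3 per the labels' protocols, without saying which library used which, and the annotation is not given in the sources used. Groups came from the treatment label. The members, gene lists, gates and comparisons were chosen with earlier results of these data known.

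Barcodes present in all runs of a group were kept with at least 1000 UMIs, 500 genes and at most 30% mitochondrial UMIs. Doublet calling with Scrublet in scanpy 1.11.5, at an expected rate of 0.06, marked at most 0.0566% of a sample, was taken as not having worked, and no cell was removed. Cells were clustered on 2000 variable genes, without 95 member and pathway genes, 30 components and 15 neighbours with leidenalg 0.10.2 at a resolution of 0.6. Clusters were cardiomyocyte-like where the summed marker list reached 0.25 of the highest cluster, a rule chosen after seeing the data. Such a cluster was set aside where its 10 leading genes held more markers of other classes than heart muscle markers. CPM and log2 ratios were computed here with scipy 1.17.1, with exact 95% intervals from run-averaged counts. They cover counting error only. The counting of calls was tested on simulated data. Named genes were the members, the other forms of their enzymes, up to 4 genes a list with the widest ratio, the 5 genes most like a member, of which up to 3 are printed, and gate or cluster markers beside a member's value. *MYOM1* and the endoderm markers come from fixed lists. No table of protein sequences was used here. An item withheld for evaluation is not reported here.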

Additional observations from a re-analysis of the deposited data

Results flagged for a closer look

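Run 3 without PD173074 stood apart from the other 4 runs of the same droplets. In cardiomyocyte-like cells it had *MB* at 1003 CPM against 810.7 to 824.6 CPM in the others, *CKM* at 152.4, *CKMT2* at 33.0 and *ENO3* at 208.2 CPM, each above the others, and *CKB* at 123.6 CPM, below them. In all cells it had *MB* at 796.4, *CKM* at 133.6 and *ENO3* at 174.9 CPM, each above the others, and *CKB* at 181.8 CPM, below them. The cut-off for such a gap is passed by chance in about 1 in 20 groups of independent values. These runs share droplets and the genes moved together in 1 run, so the gaps are not independent and that rate does not apply to them. Run 3 was also the shallowest of the 5. Without it, *CKB* in all cells was no longer called with PD173074 against without (log2 ratio 1.04, 0.99 to 1.08), and the other calls of members between samples were the same.

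In the atrial gate the log2 ratio of *CKB* over cells with no gate gene was -0.98 with PD173074 and -1.27 without it, and 1.24 in 2D culture. The gate rested on *NPPA* in 2D culture, where *NR2F1* was at 2.32 CPM in the gate cells, so it takes unlike cells in the samples. The difference between the samples was not tested, since each is 1 sample.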

How the results depend on the processing

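No paired analysis was possible because the libraries of a group are repeat runs of the same droplets, so each group is 1 sample and the replicate numbers pair nothing. In cardiomyocyte-like cells 2 members were called with PD173074 against without, and 3 with no cell filter, which added *CKMT2*. None was called without PD173074 against 2D culture under any alternative run, and 3 were called with PD173074 against 2D culture, or 4 when members and pathway genes were used in clustering, which added *EEF1A2*. Leaving out any 1 run changed none of these. Counting the set-aside clusters as cardiomyocyte-like changed none of these calls either, though 12 results moved and 9 stayed the same. In all cells 3 were called with PD173074 against without, and 2 without run 3 without PD173074, where *CKB* had a log2 ratio of 1.04 (0.99 to 1.08); leaving out any other run kept 3. With PD173074 against 2D culture 4 were called, 5 with TMM factors, which added *EEF1A2*, and 4 with any 1 run left out. The 7 called values of the marker gates became 6 to 8 with 1 run left out and 8 with gates at 2 UMIs. They include *EEF1A2* in the 17 *MYL2* cells with PD173074 and *ENO3* in the 31 *MYL2* cells without it, gates too small to describe. No share over all genes is given for the gates, so nothing is read from this count. With cells of clusters made mostly of another sample left out, *MB* alone was called in all cells without PD173074 against 2D culture (1.18), a count of 1, and the all-cell *CKB* ratio turned to -1.45 with PD173074 against without and to -0.67 with PD173074 against 2D culture. With the endoderm-like cluster left out it turned to -0.47 with PD173074 against without and to -0.66 with PD173074 against 2D culture, leaving 2 and 3 members called. That alternative, the one with at least 4000 UMIs per cell and those with cluster 3, 4 or 12 left out were chosen after seeing the data. The cause of the first turn was not tested. In cardiomyocyte-like cells the log2 ratio with PD173074 against without ran over all alternatives from -2.69 to -1.70 for *MB*, from -1.66 to -1.29 for *ENO3*, from -1.31 to -0.98 for *CKMT2*, from -0.66 to -0.50 for *EEF1A2*, from -0.35 to 0.19 for *CKM* and from -0.59 to 0.61 for *CKB*. Among other scalings, the widest shift of all log2 ratios was -0.12, with TMM factors in all cells without PD173074 against 2D culture, and none turned the sign of a called member. The number of genes called per direction was 20 to 441, and ran from 35 to 863 with a floor of 5 CPM, from 40 to 1854 with no floor, from 99 to 780 at 1.5-fold and from 3 to 248 at 3-fold. *CKMT2*, with a level of 12.01 CPM with PD173074, had the widest counting intervals of the members.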
